A study of Mus musculus with 8 samples.

Results

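Neurotrophins are secreted proteins that support the survival, growth and synapses of neurons, and 6 of the genes that encode them and their receptors were described here in nuclear RNA of cortical GABAergic neurons. Bdnf and Ntf3 encode the ligands, Ntrk2 and Ntrk3 the receptor tyrosine kinases TrkB and TrkC, Ngfr the receptor p75, and Sort1 the sorting receptor sortilin. They were chosen by gene symbol, as 6 of the 55450 genes in each count table, and all 6 were found. The series compares Thra+/+ mice, the controls, with Thra+/AMI mice, the mutants, whose Thra allele encodes a dominant-negative thyroid hormone receptor. Per the labels, a Cre driver limited a nuclear fluorescent reporter, which both groups carry, and the mutant allele to GABAergic neurons. The mice were juvenile, with no exact age or Cre line given, and each library came from the fluorescent nuclei of 1 cortex.

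As background, mature BDNF binds TrkB and the product of Ntf3 binds TrkC, and each receptor then drives the MAP kinase, PI3-kinase and phospholipase C pathways. The unprocessed proneurotrophins bind p75 together with sortilin, a combination known for the opposite outcome, loss of neurons or synapses. In the cortex BDNF comes mainly from glutamatergic neurons, while GABAergic neurons express TrkB and respond to it. BDNF is known to speed the maturation of parvalbumin neurons, and thyroid hormone acts on the same cells.

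The labels list 4 controls, numbered 1 to 4, and 4 mutants, numbered 6, 7, 8 and 10. The table of mutant 10 held the same count as that of mutant 7 in all 55220 genes compared, a difference smaller than sampling noise, and the pair was counted as 1 sample, leaving 4 controls and 3 mutants. Total counts ran from 10747169 to 13804734 reads per library. Thra itself was at a mean of 114 CPM (reads scaled to a common library total) in controls and 87.5 CPM in mutants (log2 fold change -0.39, edgeR adjusted p 0.0543). The groups did not overlap for Thra, as was so for 22.0% of tested genes. Gad2, a GABA-synthesizing enzyme that defines GABAergic neurons, was at 388 to 423 CPM in controls and 367 to 497 CPM in mutants. Of the 6 tested GABAergic markers 0 were called by edgeR, DESeq2 or limma-voom (0 at an unadjusted p under 0.05 by edgeR). Over all tested genes edgeR called 9.42%, so 0 of 6 is no result about the makeup of the libraries. Of the 7 libraries, control 4 and mutant 8 had almost no Y-linked reads. Counts covered whole gene spans, introns included: all 1287 protein-coding genes that lie inside the span of another gene were listed at 0, against 16.7% of the other protein-coding genes. A 0 for such a gene carries no information on its expression.

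Each Bdnf transcript starts at 1 of several alternative promoters and carries the same coding exon, so a count per gene sums them. For Ntrk3 and Sort1 no promoter sequence was available, so these genes were not searched. RefSeq start sites (GRCm38.p6) gave 7 windows of 300 bases for Bdnf, 2 for Ntf3 and 1 each for Ntrk2 and Ngfr. These windows ran from 250 bases before to 50 bases after a start. They were searched on both strands for AGGTCA, the half-site that nuclear receptors such as those for thyroid hormone bind, for a direct repeat of it with 4 bases between the copies, for the cyclic AMP response element TGACGTCA and for its variant TCACGTCA. Only 2 of these 11 windows held any match, both of them in Bdnf and both shown here because cyclic AMP response elements carry the known activity-dependent control of Bdnf and the half-site is the letters a thyroid hormone receptor can bind. The matches are in capitals, and positions are counted from 0 at the start site. The third Bdnf window (chr2:109692186-109692485, plus strand) held the variant response element from position -38, and the fourth (chr2:109692777-109693076, plus strand) held the half-site from position -50.
Bdnf window 3: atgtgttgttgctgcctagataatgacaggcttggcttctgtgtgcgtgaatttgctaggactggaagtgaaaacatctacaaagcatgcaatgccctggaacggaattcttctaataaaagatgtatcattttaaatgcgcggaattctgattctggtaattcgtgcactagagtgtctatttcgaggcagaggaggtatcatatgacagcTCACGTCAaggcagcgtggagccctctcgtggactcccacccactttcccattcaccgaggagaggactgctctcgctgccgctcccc
Bdnf window 4: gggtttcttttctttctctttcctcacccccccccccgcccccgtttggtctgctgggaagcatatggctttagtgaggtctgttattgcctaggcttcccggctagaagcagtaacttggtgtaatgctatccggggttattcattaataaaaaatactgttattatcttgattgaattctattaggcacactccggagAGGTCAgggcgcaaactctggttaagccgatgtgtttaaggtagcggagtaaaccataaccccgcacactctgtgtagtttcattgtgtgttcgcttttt
Among all 32817 RefSeq windows of this length, 16.3% held AGGTCA, 0.0152% its direct repeat, 1.79% TGACGTCA and 0.442% TCACGTCA. A match is a description of letters and was not tested as a binding site.

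TrkB, TrkC and sortilin were the abundant members, and their levels in every mutant lay inside the range of the controls. Ntrk2 (ENSMUSG00000055254.15, GRCm38 chromosome 13, 58806569 to 59133970, plus strand), which encodes TrkB, was at 521, 644, 629 and 947 CPM in controls 1 to 4. It was at 755, 672 and 622 CPM in mutants 6, 7 and 8. Control 1 was the lowest and control 4 the highest of all 7 libraries, and every mutant fell between them. Controls averaged 685 ± 183 CPM (SD, n = 4) and mutants 683 ± 67.3 CPM (SD, n = 3). On the log2 scale, mutant over control was -0.01 (SE 0.20, edgeR quasi-likelihood test, adjusted p 0.992), and its 95% interval allowed a level in mutants from 0.738 to 1.34 times that in controls. The counts sum the full-length and truncated forms of the receptor, which these data do not separate.

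Ntrk3 (ENSMUSG00000059146.12, chromosome 7, 78175959 to 78738012, minus strand), which encodes TrkC, was at 390, 532, 493 and 696 CPM in controls 1 to 4 and at 557, 498 and 472 CPM in mutants 6, 7 and 8. The order of the controls was that of Ntrk2, with control 1 lowest and control 4 highest, and the groups overlapped. Mutant over control was -0.05 on the log2 scale (SE 0.19, edgeR adjusted p 0.916), with an interval from 0.729 to 1.28 times the control level.

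Both Trk receptors moved together between libraries. The ratio of Ntrk2 to Ntrk3 reads, which does not depend on how libraries are scaled, ran 1.34, 1.21, 1.28 and 1.36 over controls 1 to 4. Mutants 6, 7 and 8 had ratios of 1.36, 1.35 and 1.32, inside the upper end of that range. On the log2 scale controls averaged 0.37 ± 0.0752 (SD, n = 4) and mutants 0.42 ± 0.0230 (SD, n = 3). The difference was smaller than the spread among controls (exact permutation test over 35 splits, two-sided, p = 0.371, where 0.0286 is the smallest p possible).

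Sort1 (ENSMUSG00000068747.14, chromosome 3, 108284082 to 108361511, plus strand), which encodes the receptor that sorts proneurotrophins and joins p75, was the member with the narrowest interval. It was at 141, 158, 161 and 181 CPM in controls 1 to 4 and at 161, 147 and 159 CPM in mutants 6, 7 and 8. All 3 mutants lay between control 1 and control 4. The log2 fold change was -0.04 (SE 0.11, edgeR adjusted p 0.880), and the interval ran from 0.817 to 1.15 times the control level.

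Ngfr (ENSMUSG00000000120.6, chromosome 11, 95568818 to 95587735, minus strand), the gene of p75, had almost no reads. Controls 1 to 4 had 2, 6, 6 and 1 reads. Mutants 6, 7 and 8 had 13, 1 and 4, so mutant 6 alone held most of the mutant reads. The gene did not pass the filter on low counts and was not tested. Pooled over libraries, the log2 ratio of mutant to control was 0.76, and it turned to -0.47 without mutant 6, so no direction can be read from it. A difference was not detectable at this depth.

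**Figure D1:**
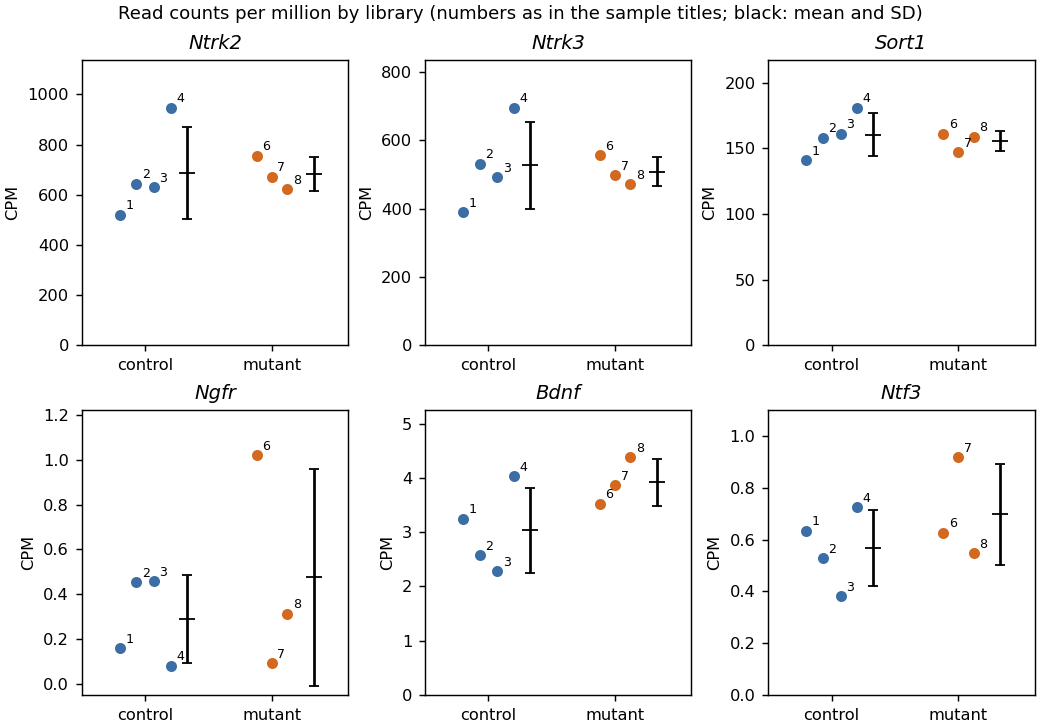
CPM of the 6 genes in each library, with every vertical axis linear and its own scale; points are libraries, and the black bar gives the mean and SD of 4 controls and 3 mutants. Ntrk2, Ntrk3 and Sort1 of the mutants lie within the range of the controls, Ngfr and Ntf3 are at about 1 CPM or less, and the groups overlap in every panel.

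Of the ligands among the 6 genes, Bdnf was present at a low level and Ntf3 at the limit of detection. Bdnf (ENSMUSG00000048482.14, chromosome 2, 109674700 to 109727007, plus strand) had 41, 34, 30 and 50 reads in controls 1 to 4, which is 3.25, 2.57, 2.28 and 4.03 CPM. It had 45, 42 and 56 reads in mutants 6, 7 and 8, which is 3.52, 3.86 and 4.38 CPM. The mutants were above 3 of the 4 controls, and control 4 lay among them. The log2 fold change was 0.37 (SE 0.27, edgeR adjusted p 0.471), and the interval, from 0.865 to 1.93 times the control level, left a near doubling within the error. The log2 fold change was as high as 0.69 without controls 1 and 4 (edgeR adjusted p 0.155), and the lowest adjusted p over all alternatives was 0.0815, with limma-voom.

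Ntf3 (ENSMUSG00000049107.13, chromosome 6, 126101412 to 126166910, minus strand), whose product is the ligand of TrkC, had 8, 7, 5 and 9 reads in controls 1 to 4 and 8, 10 and 7 reads in mutants 6, 7 and 8. The groups overlapped, and controls averaged 0.567 ± 0.148 CPM (SD, n = 4), mutants 0.697 ± 0.195 CPM (SD, n = 3). The gene did not pass the filter and was not tested. Fitted without the filter, its log2 fold change was 0.29 (edgeR adjusted p 0.854), a difference not detectable with so few reads.

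In all, 4 of the 6 genes were tested and edgeR called 0 of them at an adjusted p under 0.05, beside 9.42% of all 16448 tested genes (4.78% lower and 4.63% higher in mutants). With 4 genes that share is no result about the members. At an unadjusted p under 0.05 edgeR and DESeq2 found 0 of the 4, and limma-voom found 1, Bdnf. The share of all tested genes at that unadjusted level is not given, so unadjusted counts throughout are descriptions only. The ranges of the groups overlapped for all 6 genes, the untested Ntf3 and Ngfr included. They did not overlap for 22.0% of tested genes, and with 6 genes this is no result about the members either.

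Because Bdnf is mostly a product of glutamatergic neurons, the markers of that class were read beside it. The 12 glutamatergic markers summed to 518 to 730 CPM in controls and 433 to 526 CPM in mutants, and Slc17a7, the vesicular glutamate transporter, was at 46.9 to 94.5 CPM in controls and 47.7 to 84.2 CPM in mutants. By edgeR 0 of the 12 passed (1 at an unadjusted p under 0.05, and 0 passed by DESeq2 or limma-voom). Beside 9.42% of all tested genes called by edgeR, 0 of 12 is no result about this cell type. With the mean log2 CPM of these markers as a term the log2 fold change of Bdnf was 0.50 (edgeR adjusted p 0.295). Astrocytes also express Ntrk2, mainly in its truncated form. Their 9 markers summed to 362 to 521 CPM in controls and 311 to 355 CPM in mutants, so the sums did not overlap. Of the 8 tested, 6 had a log2 fold change below 0 and 2 above it (median -0.31). By edgeR 2 were called, Sox9 higher (log2 fold change 1.37) and Slc4a4 lower (-0.54), while Gfap lies inside the span of another gene and is listed at 0. The term fitted for astrocytes was not the sum of the 9 markers but the mean log2 CPM of the tested ones. That mean was 3.86 to 4.36 in controls and 4.00 to 4.19 in mutants, so the groups overlapped. With it as a term Ntrk2 was at a log2 fold change of 0.01. Beyond these terms, the part of either cell type in Bdnf and Ntrk2 was not tested.

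Of 11 parvalbumin markers edgeR called 5 lower and 1 higher in mutants, and of 9 somatostatin markers 3 higher and 1 lower. Over all tested genes it called 9.42%. By sign, 7 of the 11 were below 0 and 8 of the 9 above 0. The parvalbumin markers summed to 4610 to 7300 CPM in controls and 5760 to 7020 CPM in mutants, so their sum overlapped. The somatostatin markers summed to 1450 to 1840 CPM in controls and 2380 to 2790 CPM in mutants. Pvalb itself was at 35.7 to 47.8 CPM in controls and 1.29 to 2.58 CPM in mutants. In bulk libraries, fewer cells of a type and less RNA per cell cannot be told apart. Ntrk2, Ntrk3 and Sort1 had log2 fold changes between -0.05 and -0.01. Their 95% intervals, given above, leave a change in either direction possible. Called markers were selected for a change in these same libraries, so a contrast between them and the receptors is no result.

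Levels of different genes were set side by side per kb of exon. Over all 7 libraries Ntrk2 was at 27.0 to 49.1 CPM per kb, Sort1 at 18.6 to 23.9 and Ntrk3 at 12.9 to 23.1, so the ranges of Sort1 and Ntrk3 overlapped and that of Ntrk2 lay above both. Bdnf followed at 0.367 to 0.704, Ntf3 at 0.222 to 0.536 and Ngfr at 0.0234 to 0.295 CPM per kb, each overlapping its neighbour. Since introns were counted, the same was done per kb of gene span not shared with another gene. There Ntrk2 (1.78 to 3.23 CPM per kb) and Sort1 (1.97 to 2.54) overlapped, Ntrk3 (0.718 to 1.28) lay below both, and Ntf3 (0.00581 to 0.0140) and Ngfr (0.00426 to 0.0538) were last. Per kb of the longest transcript, Ntrk3 (19.8 to 35.3) and Sort1 (20.6 to 26.5) overlapped again, with Ntrk3 the higher on average. On each of these lengths the 3 abundant receptors stood above the ligands and p75 in every library.

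The spread of the receptors among controls went with the span of their genes. Control 4 had more reads in long genes than control 1: the median log2 difference of control 4 from control 1 was -0.48 for genes up to 10 kb, 0.17 for genes over 30 and up to 100 kb, and 1.07 for genes over 300 kb. Ntrk2 spans 327 kb and Ntrk3 562 kb, and their differences were 0.86 and 0.84 on the log2 scale. Sort1, at 77.4 kb, differed by 0.36, and Bdnf, at 52.3 kb, by 0.31. Controls 1 and 4 were the lowest and highest controls for Ntrk2, Ntrk3 and Sort1. Between the other controls the trend was smaller and ran the other way. The median log2 difference of control 3 from control 2 was 0.06 for genes up to 10 kb and -0.16 for genes over 300 kb. With an offset fitted to span in each library, the SD of log2 CPM among controls dropped from 0.362 to 0.0740 for Ntrk2, from 0.344 to 0.104 for Ntrk3 and from 0.149 to 0.0365 for Sort1. For Bdnf it was 0.361 before and 0.350 after. With this offset the log2 fold changes of mutant over control were -0.01 for Ntrk2 (edgeR adjusted p 0.948), -0.07 for Ntrk3 (adjusted p 0.668) and -0.05 for Sort1 (adjusted p 0.747). Between mutants and controls the trend was in the direction of control 4 over control 1 and smaller. The median log2 difference was -0.05 in the shortest span class and 0.05 in the longest.

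**Figure D2:**
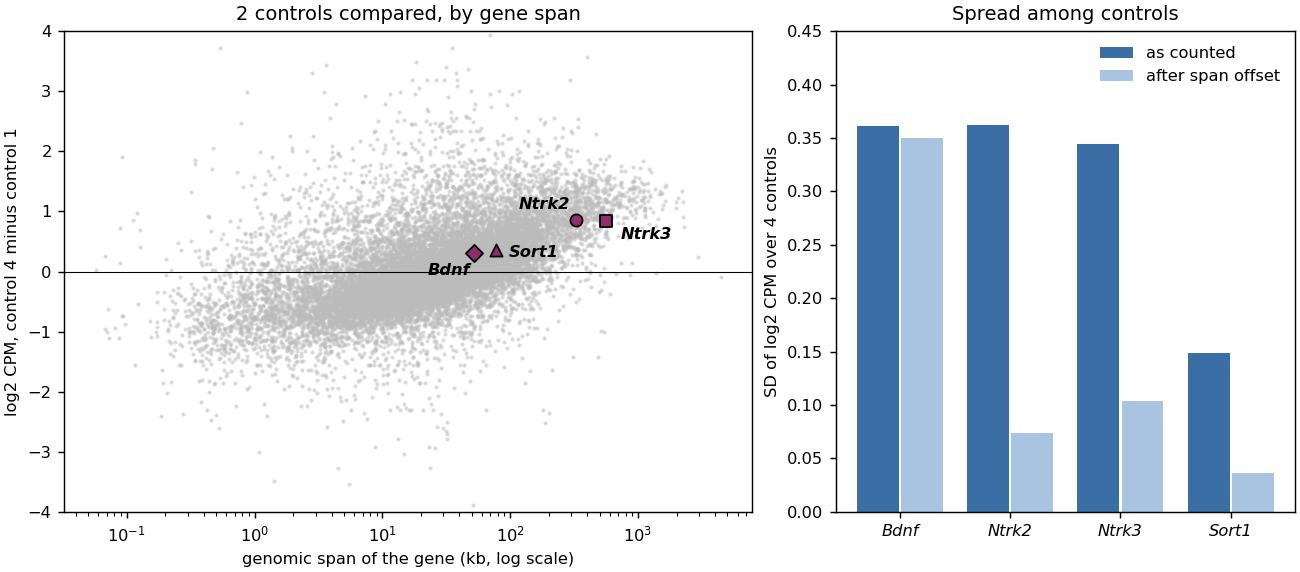
Left, difference in log2 CPM between control 4 and control 1 for each tested gene against its genomic span in kb (log axis; the vertical axis is limited to -4 to 4), with 4 of the 6 genes marked. Right, SD of log2 CPM over the 4 controls before and after an offset for span: it drops to 0.0740 for Ntrk2 and to 0.104 for Ntrk3, and stays at 0.350 for Bdnf.

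The rest of the pathway was read from 7 lists sorted by role, with 104 genes, of which 103 were tested. Of these edgeR called 8, 3 lower and 5 higher in mutants (7.77%, beside 9.42% of all tested genes), and the median log2 fold change was 0.02, beside -0.01 for all tested genes. The count ran from 2 without mutant 6 to 15 without control 4 among fits that left out 1 library, and was 19 without controls 1 and 4. The count over all genes, 1549 in the main fit, moved in the same direction in these fits, to 766, 2347 and 2778. What moved the counts was not tested. The pathway count was 14 without control 1, 5 without control 2, and 4 without mutant 7 or without mutant 8.

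Among 8 genes that process or sort proneurotrophins, edgeR called 1 (12.5%, beside 9.42% of all tested genes), and the median log2 fold change was 0.24. In lists this small, the share called is no result about the list. DESeq2 and limma-voom each called 2, Pcsk1 and Plat, which were also the 2 that edgeR found at an unadjusted p under 0.05. Pcsk1, a prohormone convertase of dense-core vesicles, rose. It was at 14.7, 12.7, 9.59 and 18.1 CPM in controls 1 to 4 and at 35.1, 29.2 and 28.7 CPM in mutants 6, 7 and 8, with no overlap (log2 fold change 1.17, SE 0.19, adjusted p 0.00238), and kept its call in every alternative. Plat, the tissue plasminogen activator, which starts the plasmin cascade that cleaves proBDNF, had a log2 fold change of 0.48 (edgeR adjusted p 0.0571). The groups did not overlap for Plat, as was so for 22.0% of tested genes. Of the 4 relatives of sortilin 0 were called by edgeR and by DESeq2 and 1 by limma-voom, and edgeR found 1 at an unadjusted p under 0.05, Sorl1. Sorl1, which sorts the amyloid precursor protein, was at 160 to 201 CPM in controls and 126 to 157 CPM in mutants (log2 fold change -0.30, SE 0.12, edgeR adjusted p 0.165). Sorcs2, which binds p75 as sortilin does, was at 55.0 to 116 CPM in controls and 89.2 to 142 CPM in mutants, and the groups overlapped (log2 fold change 0.46, SE 0.22, adjusted p 0.252).

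Downstream of the receptors, 21 of 43 Trk adaptors and kinases had a log2 fold change below 0 and 22 above it. At an unadjusted p under 0.05 edgeR found 11 of them, and at an adjusted p under 0.05 it called 1, Irs1, an adaptor of the insulin receptor that links receptor kinases to PI3-kinase. It fell, from 25.5 to 55.0 CPM in controls to 18.0 to 22.1 CPM in mutants (log2 fold change -0.88, SE 0.22, adjusted p 0.0268). DESeq2 called 4 genes of this list and limma-voom 9, beside 1989 and 3147 genes that they called over all tested genes. The 1 edgeR call was 2.33% of the list, beside 9.42% of all tested genes. No all-gene share stands beside the 11 unadjusted genes. The edgeR call of Irs1 was lost without control 2 (-0.90, adjusted p 0.0640) or without mutant 6 (-0.89, 0.102), mutant 7 (-0.80, 0.139) or mutant 8 (-0.94, 0.0831). It was also lost with the glutamatergic (-0.82, 0.0555) or the astrocyte term (-0.87, 0.0546). Of the 18 co-receptors and partners of p75, edgeR and DESeq2 called 0 and limma-voom 2, and edgeR found 1 at an unadjusted p under 0.05, Nradd. The median log2 fold changes of both lists, 0.00 and 0.04, were close to that of all tested genes.

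Of 11 tested modulators of Trk signalling edgeR called 2 in opposite directions (18.2%, beside 9.42% of all tested genes). Spry1, a feedback inhibitor of receptor tyrosine kinases, averaged 12.8 CPM in controls and 7.55 CPM in mutants, with no overlap (log2 fold change -0.76, SE 0.18, adjusted p 0.0164). Ptpro, a phosphatase reported to act on Trk receptors, was at 53.1 to 82.4 CPM in controls and 88.7 to 103 CPM in mutants (log2 fold change 0.51, SE 0.14, adjusted p 0.0375). Without mutant 6, 7 or 8 neither passed, at -0.74 (adjusted p 0.0777), -0.83 (0.0520) and -0.72 (0.0889) for Spry1 and 0.48 (0.144), 0.47 (0.160) and 0.58 (0.0754) for Ptpro. Ptpro was not called without control 2 (0.52, adjusted p 0.0901) or control 3 (0.51, 0.0940) either, nor with the glutamatergic (0.50, 0.0804) or astrocyte term (0.50, 0.0791).

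**Figure D3:**
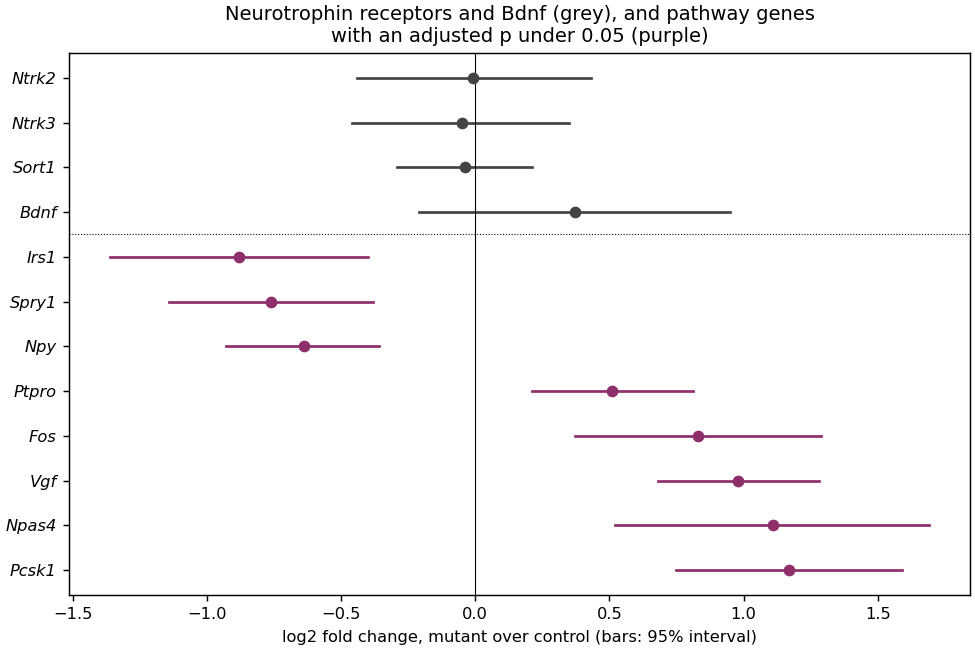
Log2 fold change of mutant over control with its 95% interval for Ntrk2, Ntrk3, Sort1 and Bdnf (grey, above the dotted line) and for the 8 pathway genes with an adjusted p under 0.05 (purple). The intervals of the 4 grey genes include 0, and the purple genes run from Irs1 at -0.88 to Pcsk1 at 1.17.

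On the side of Bdnf transcription, edgeR called 1 of 12 regulators (8.33%, beside 9.42% of all tested genes). Npas4, an activity-induced transcription factor known to act on Bdnf promoters, was at 3.89, 8.77, 8.98 and 6.53 CPM in controls 1 to 4 and at 16.4, 18.0 and 11.3 CPM in mutants 6, 7 and 8. All mutants were above all controls (log2 fold change 1.11, SE 0.27, adjusted p 0.0221), and the call was lost without mutant 6 (1.05, adjusted p 0.102) or mutant 7 (0.98, 0.124). Creb1, Crebbp, Mef2a, Mef2c and Mef2d were among the 11 that were not called.

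Of 7 genes that BDNF is known to induce, edgeR called 2 higher and 1 lower, beside 9.42% of all tested genes called. A log2 fold change above 0 was found for 6 of the 7 (median 0.41), beside 7888 of all 16448 tested genes (median -0.01). Vgf, a secreted neuropeptide precursor, was at 78.9, 73.5, 81.0 and 85.2 CPM in controls 1 to 4 and at 120, 172 and 179 CPM in mutants 6, 7 and 8, with no overlap (log2 fold change 0.98, SE 0.14, adjusted p 0.000899), and kept its call in every alternative. Fos, an immediate early transcription factor, was at 13.5, 15.1, 13.5 and 11.9 CPM in controls 1 to 4 and at 27.4, 29.8 and 14.9 CPM in mutants 6, 7 and 8 (log2 fold change 0.83, SE 0.21, adjusted p 0.0290). Mutant 8 lay just under control 2, and the call was lost without control 2 (0.89, adjusted p 0.0578), control 3 (0.83, 0.0735), mutant 6 (0.72, 0.145) or mutant 7 (0.65, 0.178), and with the glutamatergic (0.75, 0.0714) or astrocyte term (0.83, 0.0544). Npy, a neuropeptide of interneurons, was at 229 to 313 CPM in controls and 159 to 184 CPM in mutants (log2 fold change -0.64, SE 0.13, adjusted p 0.00932), and is also a marker of LAMP5 interneurons. The call of Npy was lost without mutant 6 (-0.60, adjusted p 0.0688) or mutant 8 (-0.62, 0.0637). Fos and Npas4 answer to neuronal activity through many routes, and the part of BDNF in these values was not tested.

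**Figure D4:**
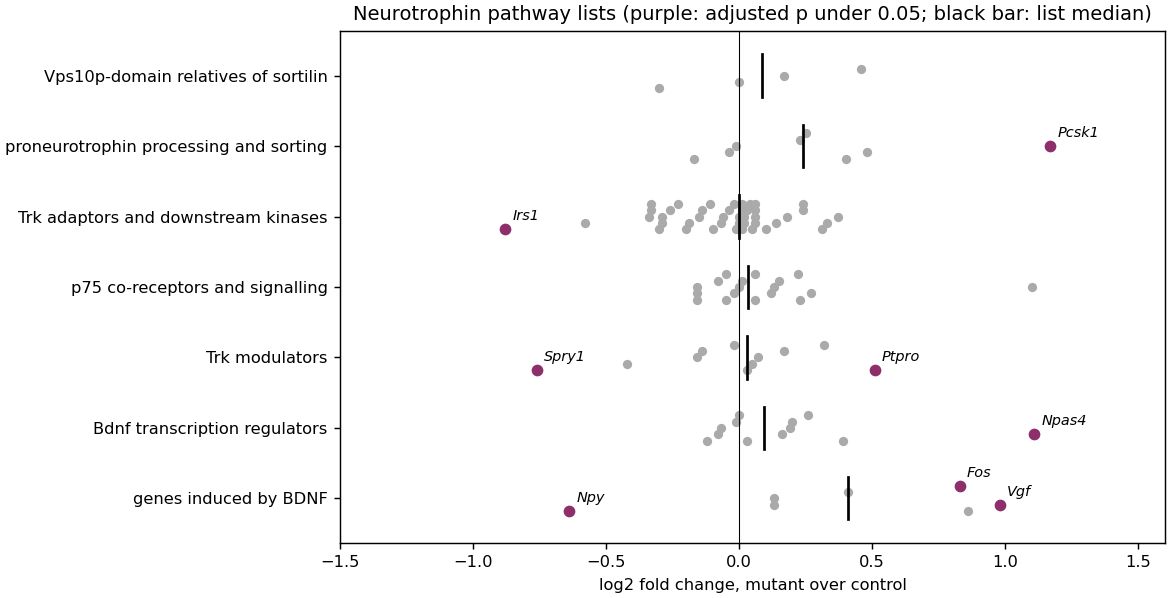
Log2 fold change of mutant over control for the tested genes of the 7 pathway lists; purple points with names have an adjusted p under 0.05, and the black bar is the median of each list. The 8 named genes run from Irs1 at -0.88 to Pcsk1 at 1.17, and the list of genes induced by BDNF has its median at 0.41.

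By the rule for likeness, the member with the lowest p, Bdnf, was compared with 11797 genes of at least 5 CPM over the 7 libraries. The closest profiles of log2 CPM, each centred on its mean, were those of Stum (root mean square difference 0.105) and Klf13 (0.120), against a median of 0.382. The nearest profiles lie under the median by construction, and Bdnf had only 30 to 56 reads per library, so these values are a description only. Neither was called (edgeR adjusted p 0.268 and 0.685).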

How the data were processed

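Nuclear RNA of sorted GABAergic nuclei was amplified with SMART-Seq v4 and made into Nextera XT libraries, per the labels' protocols. The deposited values are raw counts of reads per gene, whole numbers without a header, and the labels record no normalization; Bowtie2 2.5.3 and the builds mm10 and GRCm38 are named in the submitters' processing notes, and the counting program is not given in the sources used here. All 55450 gene identifiers were found in GENCODE M21 (GRCm38). All 13036 annotated genes lying inside another gene's span were at 0, so shared stretches are not counted, on either strand.

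Counts were fitted with edgeR 4.0.16 in R 4.3.3 (filterByExpr, least count 10, least total 15; TMM; robust quasi-likelihood; 4 controls against 3 mutants; Benjamini-Hochberg over 16448 genes), with limma 3.58.1 (voom with sample quality weights) and DESeq2 1.42.0 as alternatives, all tested on simulated counts. Mutant 10, which repeats mutant 7, was left out, and which animal gave those counts is not known. No label says that replicates came from separate litters. SE is the log2 fold change divided by the root of F. CPM is TMM-scaled. SMART-Seq reads carry no molecular identifiers, so read counts understate the error between molecules; at the lowest total 1 CPM is 10.7 reads. The members and lists were chosen with earlier results of these data known. Named genes were the 6 members, every called gene of the pathway lists, and the 2 profiles nearest the member with the lowest p; genes named as not called and marker genes were added after values were seen. Some genes of the lists as first written are not reported here and are in none of the list counts. Of the cell type lists, edgeR called 5 of 8 VIP, 4 of 7 LAMP5, 1 of 10 oligodendrocyte and 2 of 3 cholinergic genes, beside 9.42% of all tested genes. It called 0 of 7 microglial genes (2 at an unadjusted p under 0.05, with 1 called by DESeq2 and 1 by limma-voom). It called 0 of 9 endothelial genes (1 unadjusted, with 0 called by DESeq2 and 1 by limma-voom).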

Additional observations from a re-analysis of the deposited data

How the results depend on the processing

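None of the 4 tested genes Bdnf, Ntrk2, Ntrk3 and Sort1 was called in any of the 16 alternative fits: another normalization, DESeq2, limma-voom, no filter, terms for glutamatergic markers, astrocyte markers or Y-linked reads, an offset for gene span, 7 fits without 1 library, and 1 without controls 1 and 4. The astrocyte term and the unshared span were chosen after seeing the data. The log2 fold change of Bdnf stayed above 0, from 0.26 to 0.69. Values near 0 changed sign: Ntrk2 was 0.05 with limma-voom, 0.03 with the glutamatergic term, 0.01 with the Y-linked term, 0.01 with the astrocyte term and 0.10 without controls 1 and 4. Without 1 library Ntrk2 ran from -0.11 to 0.19, Ntrk3 from -0.17 to 0.11 and Sort1 from -0.10 to 0.02, all highest without control 4. The difference in the log2 ratio of Ntrk2 to Ntrk3 was 0.05, and 0.02 to 0.07 in the alternatives, with exact p from 0.200 to 0.700 without 1 library, where no p under 0.05 was possible, and 0.486 with the span offset. The count over all genes, 1549, was 3147 with limma-voom, 2753 with the span offset and 2778 without controls 1 and 4. Without 1 library it ran from 734 (mutant 7) to 2347 (control 4), with 766 without mutant 6, 816 without mutant 8 and 1016 without control 3. The pathway count, 8, was 21 with limma-voom, 17 with the span offset and 19 without controls 1 and 4, and 2 to 15 without 1 library. The cause of these changes was not tested. Depth limits Ntf3 and Ngfr, with 5 to 10 and 1 to 13 reads per library. No paired analysis was possible because the labels give no litter, batch or pair.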
